A study of Mus musculus with 27 samples.

Results

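The genes described here are 10 transcripts that mark macrophages living permanently in adipose tissue: the scavenger receptors Cd163, Timd4 and Lyve1, the C-type lectins Mrc1, Cd209f and Clec10a, the folate receptor Folr2, the secreted proteins Ccl24 and Retnla, and the coagulation factor subunit F13a1. They were chosen by gene name among the 43460 gene names of the count table, each was found once, and all 10 passed the filter on low counts that 17821 names passed. The tissue was epididymal white fat, a visceral depot attached to the epididymis, of C57BL/6N mice, sequenced as 27 libraries in 9 groups with 3 each. Mice of the initial group were 5 weeks old. Normal diet throughout was given to control8 (13 weeks old, after 8 weeks), control12 (17 weeks old, after 12 weeks) and control16 (21 weeks old, after 16 weeks). The gain8 group ate a high-fat diet, with 60% of energy as fat, for 8 weeks and was 13 weeks old. The loss group had the same 8 weeks of high-fat diet and then 4 weeks of normal diet, and was 17 weeks old. The maintenance group had 8 weeks of normal diet after those 8 weeks of high-fat diet, and was 21 weeks old. Both remaining groups were 21 weeks old, after 16 weeks of treatment, and had high-fat diet for their final 4 weeks. For gain4 this was the first high-fat diet, and for regain it followed an earlier weight loss. Before it, regain had 8 weeks of high-fat diet and 4 weeks of normal diet like the loss group, as read from the treatment periods. The labels name no genetic change in any group.

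Adipose tissue holds resident macrophages that sit along vessels and between adipocytes, take up material through scavenger receptors and lectins, and are maintained with little input from blood. During obesity, monocytes enter the tissue and become lipid-laden macrophages that surround dying adipocytes. Cd68, a lysosomal membrane protein, Emr1, the gene of the F4/80 antigen, and Csf1r, the receptor for macrophage colony-stimulating factor, are shared by both kinds of cell, whereas the 10 genes are known mainly from the resident kind. In whole-tissue RNA, fewer cells of a type and less RNA per cell cannot be told apart.

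The libraries held 26479773 to 32728594 counts, and each of the 10 genes was read in all of them, from 10 counts of Timd4 upward. Replicates carry numbers in the labels, with no statement that each was a separate mouse, so every p-value reflects the spread among these libraries, which may be technical. Adipocyte genes were abundant in every library (Adipoq 764 to 5812 CPM, counts scaled to library size), and the 15 general macrophage genes summed to 1614 to 2762 CPM on continuous normal diet. Of 8 adipocyte genes, 1 rose and 2 fell in gain8, and 3 fell and 0 rose in each of loss and regain, with median log2 fold changes of -0.534, -0.896 and -0.997 beside the falls described below; their part in those falls was not tested. Some libraries stood apart. Maintenance library 3 held 8065 CPM of 12 liver transcripts, against at most 131 elsewhere, and little Cd68. Control12 library 3 and control8 library 2 held 251 and 147 CPM of 6 efferent duct transcripts. Loss library 1 had the most Cd68 (1065 CPM) and the lowest adipocyte sum. Gain8 library 2 had the lowest level of its group for Cd163, Timd4, Lyve1, Ccl24, Cd209f, Retnla and F13a1. For the 10 genes, results that turn on these libraries are given below with and without them.

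RefSeq promoter sequences of GRCm38.p6 were found for 7 of the 10 genes, and 4 are shown because their genes mark out the pattern of the data: Retnla and Cd163 had the largest falls in loss and regain, Timd4 is the least abundant, and Mrc1 is among those that did not fall. Each runs 5′ to 3′ on the plus strand over the bases before the annotated start, and capitals mark the matches described after them. The coordinates are chr16:48842359-48842550 for Retnla, chr11:46810549-46810798 for Timd4, chr6:124304401-124304650 for Cd163 and chr2:14229164-14229391 for Mrc1.
Retnla: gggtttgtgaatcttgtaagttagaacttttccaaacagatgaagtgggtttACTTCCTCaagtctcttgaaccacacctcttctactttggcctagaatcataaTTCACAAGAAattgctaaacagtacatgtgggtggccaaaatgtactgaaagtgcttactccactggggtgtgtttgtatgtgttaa
Timd4: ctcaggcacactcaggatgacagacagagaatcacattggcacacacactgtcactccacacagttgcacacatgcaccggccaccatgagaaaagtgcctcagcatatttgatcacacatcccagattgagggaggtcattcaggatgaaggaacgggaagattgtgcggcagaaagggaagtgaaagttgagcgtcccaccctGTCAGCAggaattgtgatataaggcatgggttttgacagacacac
Cd163: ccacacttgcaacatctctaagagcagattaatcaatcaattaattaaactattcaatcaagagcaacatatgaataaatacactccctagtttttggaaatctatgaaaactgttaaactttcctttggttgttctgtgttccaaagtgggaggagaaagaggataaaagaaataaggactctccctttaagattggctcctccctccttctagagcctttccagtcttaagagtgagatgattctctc
Mrc1: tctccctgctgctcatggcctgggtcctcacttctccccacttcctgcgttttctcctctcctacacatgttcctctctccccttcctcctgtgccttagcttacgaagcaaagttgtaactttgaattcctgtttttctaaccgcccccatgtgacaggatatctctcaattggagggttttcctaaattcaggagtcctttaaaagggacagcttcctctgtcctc
The windows of 250 bases were searched on both strands for 4 motifs of factors that act in macrophages. The STAT6 motif (TTC and GAA with 4 bases of any kind between them), bound by the factor that interleukin-4 and interleukin-13 activate, was present in 5.8537% of all 32851 RefSeq promoter windows and, among these genes, only in that of Retnla, at bases 106 to 115. The PU.1 motif GAGGAAGT (2.4413% of windows) was also found only there, on the opposite strand at bases 53 to 60. The MAF half-site TGCTGAC (3.8111%) was found on the opposite strand in Timd4, at bases 206 to 212, and in Retnla at bases 203 to 209, past the stretch shown. The C/EBP motif TTGNNCAA (5.6498%) was in no window of the 7 genes. These are matches of letters in a short window and were not tied to any measured binding.

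In age-matched controls the 10 genes differed widely in abundance. Per transcript length, Retnla was the highest in the control16 group at 1111 ± 81.5 FPKM (fragments scaled to transcript length and library size, SD, n = 3), and Timd4 the lowest at 2.19 ± 0.862 FPKM. Between them stood Folr2 at 64.5 ± 7.11, F13a1 at 62.04 ± 9.78 and Cd163 at 45.9 ± 12.6 FPKM, close to the 56.2 ± 9.60 FPKM of Cd68. Clec10a, Lyve1, Cd209f, Mrc1 and Ccl24 had mean levels of 35.9, 32.1, 30.1, 25.6 and 14.1 FPKM. Of the groups on normal diet, initial and control8 were compared by test. Between the initial and the control8 group 0 of 10 were called by edgeR, beside 0.724% of all genes. An unadjusted p under 0.05 was reached by 1 of them, and DESeq2 called 0.

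The diets divided the genes. After 8 weeks of high-fat diet Ccl24, Cd209f, Timd4 and Lyve1 fell to 0.270, 0.308, 0.231 and 0.309 of their control level, so that 4 of 10 genes were lower and 0 higher, beside 9.52% of all genes called lower and 12.0% called higher. In the loss group, 4 weeks after the return to normal diet, Cd163, Retnla, Timd4 and Lyve1 were lower and Folr2 was higher, beside 8.24% and 11.8% of all genes. In the regain group Cd163, Retnla, Lyve1, Ccl24 and Cd209f were lower while Mrc1 and Folr2 were higher, 7 of 10 in all, beside 9.23% and 12.5% of all genes. After 4 weeks of first high-fat diet 0 of 10 were called, beside 5.82% of all genes; 2 reached an unadjusted p under 0.05 and DESeq2 called 0. The median log2 fold change of the 10 genes was -0.92 in gain8, -0.96 in loss, -0.96 in regain and -0.23 in gain4, where the median of all tested genes was -0.02, -0.04, -0.01 and -0.02. That median hides a division, since 7 genes lay below 0 and 3 above it in each of gain8, loss and regain. The genes above 0 were Mrc1, Folr2 and Clec10a every time.

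**Figure D1:**
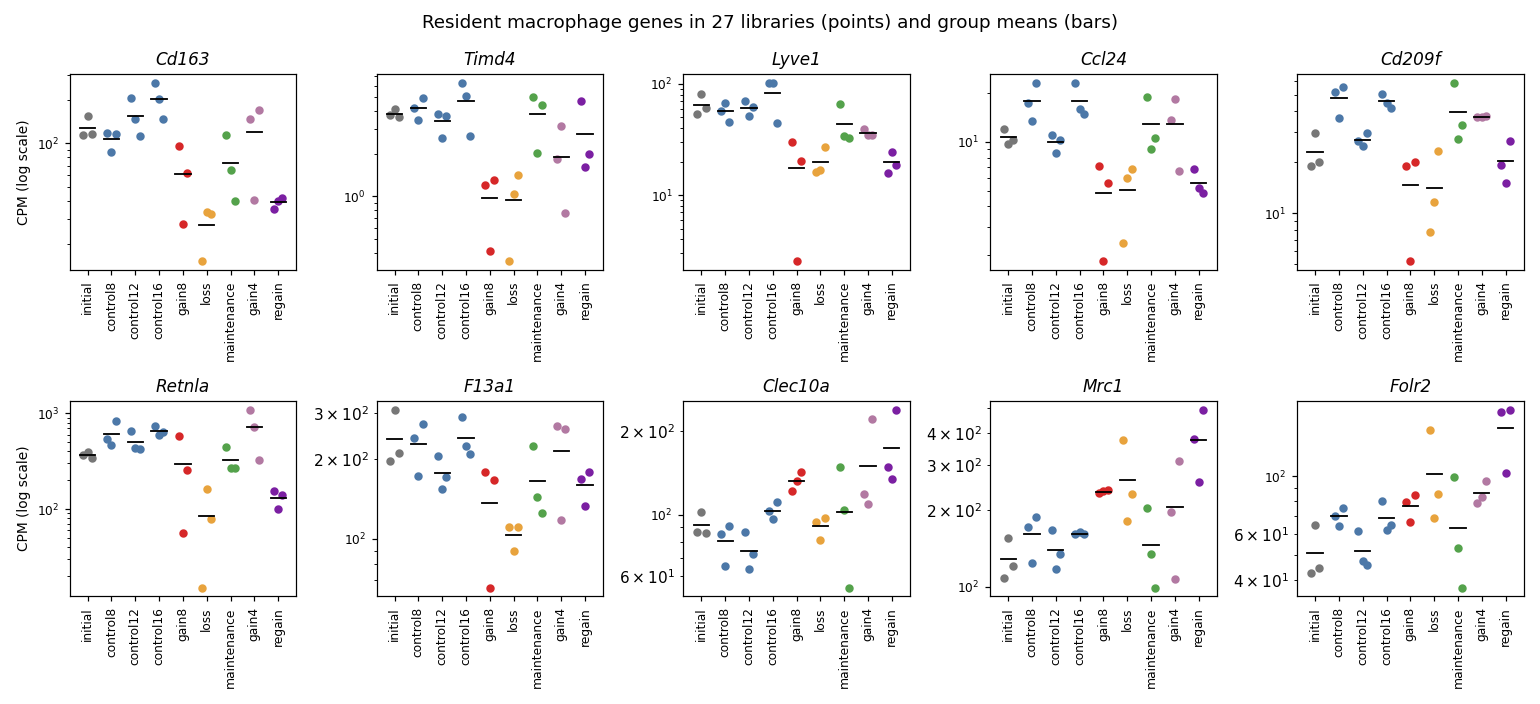
CPM of the 10 genes (log scale) in each of 27 libraries by group, with bars at group means. The means of Cd163, Timd4, Lyve1, Ccl24, Cd209f and Retnla in gain8, loss and regain lie below those of the initial and the 3 control groups, whereas Mrc1 and Folr2 have their highest means in regain.

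**Figure D2:**
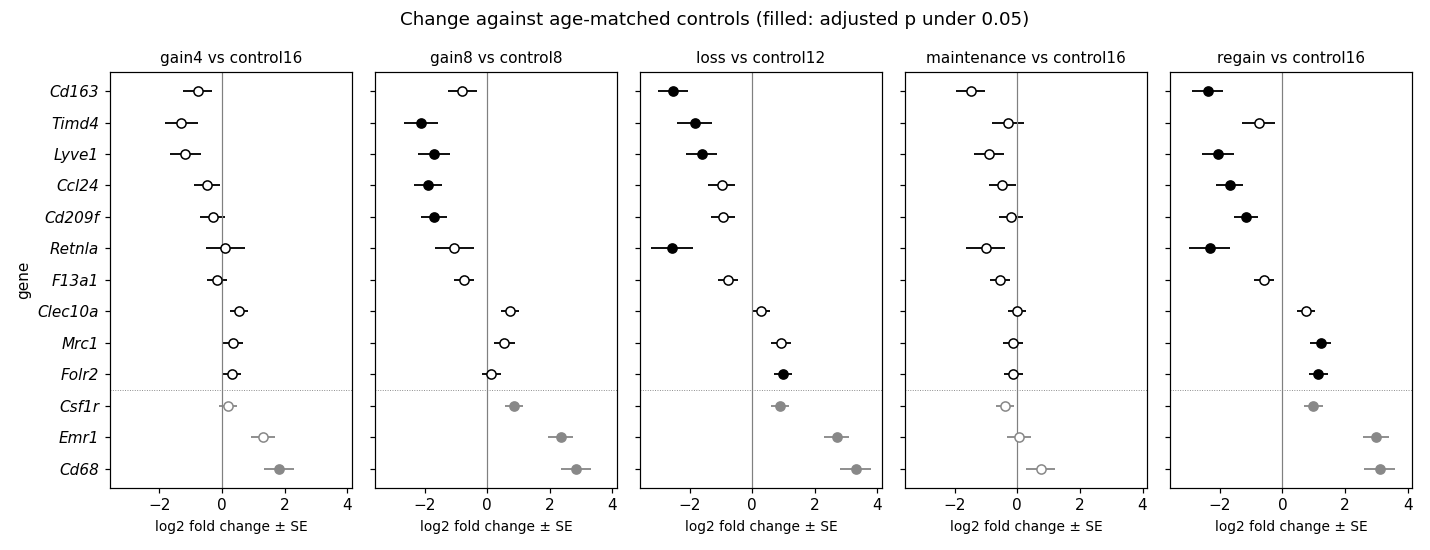
Log2 fold change (± SE, edgeR) of each gene against the control group of the same age, filled where the adjusted p was under 0.05, with 3 general macrophage genes in grey. The genes are ordered by pattern, after their values were seen: the upper 7 lie below 0 and Clec10a, Mrc1 and Folr2 above it in gain8, loss and regain.

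Cd163, the receptor that clears haemoglobin bound to haptoglobin (chromosome 6, 124304656 to 124330527, plus strand, GRCm38), fell most clearly after weight loss and in regain. Its level was 207, 148 and 112 CPM in the control12 libraries and 15.2, 33.4 and 32.3 CPM in the loss libraries. Every loss library lay far below every control, with a log2 fold change of -2.53 ± 0.49 (SE, adjusted p = 0.00107), and without loss library 1 the change was -2.24 (adjusted p = 0.0143). In regain it was 34.9, 39.98 and 41.6 CPM, against 262, 203 and 147 CPM in control16, a change of -2.39 ± 0.48 (adjusted p = 0.00129). The regain libraries were tightly grouped and shared no range with the controls. The gain8 libraries, at 95.3, 27.4 and 62.1 CPM against 118, 87.05 and 115 in control8, spread widely and reached into the control range (-0.80, adjusted p = 0.223). In maintenance Cd163 was 113, 65.00 and 39.7 CPM, below all control16 libraries but not past the test (-1.49 ± 0.47, adjusted p = 0.0956). Group means ran from control16 and control12 at the top, through initial, gain4, control8, maintenance and gain8, to regain and loss, and the ranges of regain and loss, at the bottom, were the only neighbours that did not overlap. Of 11 other genes that handle haem, 6 rose, 0 fell and 5 were not called in each of gain8, loss and regain, beside 12.0%, 11.8% and 12.5% of all genes called higher. Hp, which encodes haptoglobin, changed by 2.05 ± 0.44 in gain8 (adjusted p = 0.00275). It was lower in loss than in gain8, with means of 1464 and 9399 CPM (-2.68 ± 0.45, adjusted p = 0.0315). Hmox1, the haem-degrading enzyme, changed by 2.97 ± 0.56 in loss (adjusted p = 0.000901). Hmox1 was highest in loss library 1, at 1017 CPM, beside a loss mean of 430 ± 508 CPM (SD). Its change without that library is not given here.

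Timd4, a receptor for phosphatidylserine on dying cells (chromosome 11, 46810800 to 46844332, plus strand), is a mark of long-lived resident macrophages. It measured 4.23, 3.47 and 4.97 CPM in control8 and 1.21, 0.408 and 1.31 CPM in gain8, a change of -2.11 ± 0.56 (adjusted p = 0.00994). The loss libraries were as low, at 0.349, 1.04 and 1.42 CPM against 3.83, 2.60 and 3.71 CPM in control12 (-1.84 ± 0.55, adjusted p = 0.0232). No range was shared with the controls in either comparison, but both calls ended when a single library was left out, gain8 library 2 (-1.74, adjusted p = 0.0641) or loss library 1 (-1.45, adjusted p = 0.149) among them. Unlike Cd163, Timd4 was not called lower in regain, where library 1, at the top of 1.60 to 4.72 CPM, lay within the control16 range of 2.67 to 6.29 CPM (-0.76, adjusted p = 0.314). In gain4 it was 1.82, 3.14 and 0.766 CPM, spread over a wide range (-1.30, adjusted p = 0.138). Kupffer cells of the liver also carry Timd4. Their marker Clec4f was at 0 in 17 of 27 libraries and reached 6.09 CPM in maintenance library 3, the library with liver transcripts, where Timd4 was 4.37 CPM. Of the other Kupffer and peritoneal macrophage genes tested, 6 in number, Gata6, the factor of peritoneal macrophages, fell in gain8 (-1.78 ± 0.31, adjusted p = 0.000593), and 0 others were called there. In loss 1 rose and 1 fell, and in regain 1 rose and 2 fell. The gene that rose was Cd5l, a secreted protein of tissue macrophages, which stood at 119.7 CPM in loss library 1, without which the loss call of Timd4 ended, and at 1.44 and 3.70 CPM in the other 2 loss libraries. Its part in the result was not tested. Summed over the list, those genes reached 35.1 to 58.2 CPM in gain8 and 70.5 to 75.1 CPM in control8.

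Lyve1, a hyaluronan receptor of perivascular macrophages (chromosome 7, 110850607 to 110863239, minus strand), was lower in all of gain8, loss and regain. Gain8 had 29.7, 2.55 and 20.1 CPM against 56.5, 67.2 and 45.7 CPM in control8 (-1.69 ± 0.50, adjusted p = 0.0201). Loss had 16.1, 16.8 and 27.02 CPM against 70.5, 51.3 and 62.00 CPM in control12 (-1.62 ± 0.50, adjusted p = 0.0274). Regain had 15.8, 24.6 and 18.6 CPM against 102, 101 and 44.4 CPM in control16 (-2.06 ± 0.51, adjusted p = 0.00606). Each of the 9 diet libraries lay below every control of its age. The first 2 of these calls were fragile: without control8 library 2 the gain8 change was -1.55 (adjusted p = 0.0614), without gain8 library 3 it was -1.80 (adjusted p = 0.0533), and the loss call ended without any of control12 libraries 1 and 3 and loss libraries 1 and 2. Gain4 was also below all its controls, at 39.4, 34.9 and 34.7 CPM, without a call (-1.18, adjusted p = 0.142).

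Lyve1 is also a defining gene of lymphatic endothelium, and other lymphatic genes moved beside it. Of 8 lymphatic genes, Lyve1 included, 4 fell and 0 rose in gain8, among them Mmrn1 (-4.00 ± 1.27, adjusted p = 0.0282) and Reln (-3.62 ± 1.17, adjusted p = 0.0307). In loss 4 fell and 1 rose. In regain Lyve1 alone was called. The other lymphatic genes summed to 51.3 to 211 CPM over the 12 libraries of initial and control groups, 23.1 to 46.9 in gain8, 32.9 to 125 in loss and 38.4 to 86.00 in regain. Prox1, the factor that specifies lymphatic endothelium, was at 0 in loss library 1 alone, and Ccl21a was at 0 in gain8 library 2 alone. The part of lymphatic vessels in the change of Lyve1 was not tested.

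Retnla encodes a secreted resistin-like protein made by macrophages under interleukin-4 and interleukin-13 (chromosome 16, 48842551 to 48844461, plus strand), and its promoter is the one that holds the STAT6 letters shown above. It ranged more widely than any of the other 9, from 15.2 CPM in loss library 1 to 1094 CPM in gain4 library 1. The loss libraries had 15.2, 161 and 79.4 CPM, against 657, 435 and 426 CPM in control12 (-2.57 ± 0.67, adjusted p = 0.00997). Regain had 154, 100.1 and 141 CPM, against 739, 593 and 645 CPM in control16 (-2.33 ± 0.66, adjusted p = 0.0151). In both, all diet libraries were below all controls, yet the loss call ended without loss library 1 (-2.07, adjusted p = 0.055) and the regain call without regain library 2 (-2.16, adjusted p = 0.0603) or 3 (-2.38, adjusted p = 0.054). Gain8 was scattered, at 579, 56.6 and 258 CPM, and overlapped control8 (-1.05, adjusted p = 0.244). Gain4, at 1094, 717 and 322 CPM, had the highest group mean of all 9 groups, and its range spanned that of control16 (0.11, adjusted p = 0.938).

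Ccl24, or eotaxin-2, is a chemokine that draws eosinophils through their receptor Ccr3 (chromosome 5, 135569937 to 135573049, minus strand). Its level was 17.4, 13.5 and 23.03 CPM in control8 and 7.11, 1.84 and 5.59 CPM in gain8, lower in all 3 libraries (-1.89 ± 0.44, adjusted p = 0.00432). Regain was as low, at 6.81, 5.21 and 4.81 CPM against 23.1, 15.97 and 14.9 CPM in control16 (-1.68 ± 0.43, adjusted p = 0.00822). Both calls held whichever library was left out. Loss, at 2.38, 5.95 and 6.81 CPM, lay below control12 (11.03, 8.59 and 10.3 CPM) without passing the test (-0.98, adjusted p = 0.107). The tested genes of type 2 signalling did not fall as a group: of 14, 3 rose and 0 fell in gain8, 1 rose in loss and 1 fell in regain. Il13 and Il5 of that list did not pass the filter on low counts, with at most 0.442 and 0.302 CPM. Chil3, another secreted product of alternatively activated macrophages, rose in gain8 (4.35 ± 0.93, adjusted p = 0.00252), and the interleukin-4 transcript ranged from 0.605 to 1.58 CPM in all libraries. Of 6 eosinophil genes tested, 1 rose and 1 fell in gain8, 2 rose and 0 fell in loss, and 1 rose and 0 fell in regain. Over all genes, 12.0%, 11.8% and 12.5% were called higher and 9.52%, 8.24% and 9.23% lower in these groups. Ccr3 rose in loss (2.07 ± 0.58, adjusted p = 0.0164) and in regain (1.77 ± 0.57, adjusted p = 0.0309). It was highest in loss library 1, at 6.29 CPM, beside a loss mean of 3.68 ± 2.29 CPM (SD).

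Cd209f belongs to the DC-SIGN family of C-type lectins (chromosome 8, 4102787 to 4105835, minus strand), whose members lie together and resemble each other, so reads may be divided among them in counting. It fell in gain8 from 51.9, 36.3 and 55.4 to 19.1, 5.24 and 20.01 CPM (-1.70 ± 0.40, adjusted p = 0.00514), a call that no left-out library ended. In regain it was 19.3, 15.1 and 26.5 CPM against 50.1, 44.6 and 41.9 CPM in control16 (-1.17 ± 0.40, adjusted p = 0.0395). The regain libraries shared no range with the controls, but that call ended without any of control16 libraries 1, 2 and 3 or regain libraries 1 and 2. In loss Cd209f was 7.76, 11.6 and 23.2 CPM, below all of control12 (26.7, 24.8 and 29.7 CPM), without a call (-0.93, adjusted p = 0.0987). Among its relatives, Cd209g fell in gain8 (-1.68 ± 0.43, adjusted p = 0.00797), Cd209a in loss (-1.28 ± 0.33, adjusted p = 0.00977) and in regain (-1.91 ± 0.33, adjusted p = 0.000375), and Cd209b in regain (-2.66 ± 0.58, adjusted p = 0.00253). Cd209a also marks dendritic cells. Of 10 dendritic cell genes, 1 rose and 1 fell in gain8, 1 rose and 3 fell in loss, and 2 rose and 3 fell in regain.

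Mrc1, the mannose receptor CD206 (chromosome 2, 14229392 to 14332057, plus strand), is often used as a mark of the same macrophages, but it did not fall. The gain8 libraries had 232, 237 and 238 CPM, above all of control8 (171, 124 and 188 CPM), with a change of 0.55 ± 0.33 that missed the threshold (adjusted p = 0.232). In loss it was 376, 182 and 229.9 CPM against 167, 117 and 134 in control12 (0.91 ± 0.33, adjusted p = 0.0531). In regain it rose to 377, 256 and 493 CPM from 160.3, 163 and 161 in control16 (1.22 ± 0.33, adjusted p = 0.0113). DESeq2 called the loss change of Mrc1 (adjusted p = 0.0327). The diet libraries were above the controls in each of the 3 comparisons, and the regain call ended without regain library 3 (0.98, adjusted p = 0.0739). The order of group means was regain, loss, gain8, gain4, control16, control8, maintenance, control12 and initial, and all neighbours overlapped.

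Folr2, a folate receptor anchored in the membrane of resident macrophages (chromosome 7, 101839988 to 101857194, minus strand), followed Mrc1. It was 176, 103 and 179.8 CPM in regain against 80.3, 62.1 and 64.7 CPM in control16 (1.15 ± 0.30, adjusted p = 0.00956), and this call held whichever library was left out. In loss it was 150.5, 69.00 and 84.97 CPM against 61.4, 47.04 and 45.7 CPM (0.98 ± 0.30, adjusted p = 0.0257). All loss libraries exceeded all controls, but library 1 was far above the other 2, and without it the change was 0.58 (adjusted p = 0.261); the call also ended without control12 library 2 or 3. In gain8 Folr2 overlapped its control range, with 2 libraries above it, at 79.6, 66.5 and 84.3 CPM against 70.6, 64.6 and 75.1 (0.13, adjusted p = 0.785).

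Clec10a, a lectin for galactose-bearing glycans found on macrophages and some dendritic cells (chromosome 11, 70156197 to 70170834, plus strand), was called in none of these comparisons. It was nonetheless higher in every gain8 library, at 122, 132 and 143 CPM, than in control8, at 84.9, 65.2 and 91.1 CPM (0.72 ± 0.29, adjusted p = 0.0765). In regain it was 148, 135 and 239 CPM against 103, 96.1 and 111 CPM in control16 (0.75 ± 0.29, adjusted p = 0.0638), again with no shared range. DESeq2 called the regain change (adjusted p = 0.048) but not the gain8 change. With maintenance library 3, loss library 1 and control12 library 3 left out, edgeR called both (adjusted p = 0.0306 and 0.032). Those 3 libraries belong to none of the groups compared here, so the libraries compared were the same. In loss it remained near its controls, at 94.3, 80.8 and 97.5 CPM against 86.6, 63.9 and 72.5 CPM (0.29, adjusted p = 0.497).

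F13a1, the catalytic subunit of the clot-stabilising transglutaminase (chromosome 13, 36867178 to 37050244, minus strand), is made by resident macrophages and by platelets. It was lower on average in gain8 (179, 65.3 and 167 CPM against 240.1, 173 and 272 CPM), with a change of -0.73 ± 0.33 that was not called (adjusted p = 0.114). In loss all 3 libraries, at 110.3, 89.5 and 111 CPM, lay below control12 at 207, 154 and 171 CPM (-0.78 ± 0.33, adjusted p = 0.0985). In regain the libraries, at 169, 133 and 179 CPM, were below control16 as well (-0.59, adjusted p = 0.207). The same direction came back each time at a size that these libraries could not separate from their spread. Of 6 platelet genes, 1 rose and 1 fell in gain8, 1 rose in loss and 1 fell in regain; the platelet chemokine Ppbp was the one that fell in both gain8 (-1.21 ± 0.33, adjusted p = 0.0128) and regain (-1.19 ± 0.33, adjusted p = 0.0124). The summed platelet list was 43.1 to 61.4 CPM in gain8 and 42.5 to 57.7 CPM in control8, and its part in the level of F13a1 was not tested.

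The loss calls leaned on loss library 1, in which Cd163, Timd4, Lyve1, Retnla, Ccl24 and Cd209f were at their lowest of that group and Cd68, Mrc1 and Folr2 at their highest. Without it Cd163 alone was still called, 1 of 10, beside 6.44% of all genes. Without the 3 libraries that stood apart together (maintenance library 3, loss library 1 and control12 library 3), Cd163 was again the only call, at -2.43. The changes of the other genes kept their sign. Fitted on the loss and control12 libraries alone, Timd4, Folr2 and Retnla were no longer called (adjusted p = 0.0724, 0.0908 and 0.0842).

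Normal diet after the high-fat weeks was sampled at 4 weeks, in loss, and at 8 weeks, in maintenance. Between loss and gain8, 0 of 10 genes were called, beside 0.0786% of all genes; 2 reached an unadjusted p under 0.05 and DESeq2 called 0. The change in loss did not differ by the test from the change in gain8 for any of the 10 (0 called, beside 0.00% of all genes; 1 reached an unadjusted p under 0.05 and DESeq2 called 0). In maintenance all 10 log2 fold changes against control16 were at or below 0, with a median of -0.39 beside 0.02 over all genes, and 0 were called, beside 0.00% of all genes. There 1 gene, Cd163, had an unadjusted p under 0.05, and it was called by DESeq2 (adjusted p = 0.0369), which called 4.88% of all genes. Timd4, at 5.05, 2.02 and 4.37 CPM, and Cd209f, at 58.5, 27.4 and 33.2 CPM, overlapped the control16 range, while Retnla, at 445, 266 and 268 CPM, lay below all control16 libraries without a call (-1.01, adjusted p = 0.378). Set against the loss effect, the maintenance effect differed for 0 of 10 genes, beside 8.97% of all genes; 2 reached an unadjusted p under 0.05 and DESeq2 called 0.

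Regain was compared with first exposure of the same length and with maintenance. Against gain4, Cd163 (-1.62 ± 0.47, adjusted p = 0.0468) and Retnla (-2.44 ± 0.66, adjusted p = 0.039) were lower in regain, 2 of 10, beside 5.49% of all genes. For Retnla the regain libraries, at 100.1 to 154 CPM, lay below gain4, at 322 to 1094 CPM. For Cd163, gain4 library 2, at 40.3 CPM, lay within the regain range, and both calls ended when any of several libraries was left out and under no filter. Against maintenance, Mrc1 (1.37 ± 0.33, adjusted p = 0.00455) and Folr2 (1.28 ± 0.30, adjusted p = 0.00396) were higher and Ccl24 (-1.20 ± 0.43, adjusted p = 0.042) was lower, 3 of 10, beside 26.9% of all genes. The Ccl24 call ended without maintenance library 1 (-0.81, adjusted p = 0.228) or any regain library, and a fit of the compared groups alone called none of these 3 (adjusted p = 0.07 for Mrc1, 0.112 for Folr2 and 0.0743 for Ccl24). The comparisons of maintenance, gain4 and regain share the control16 libraries.

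Cd68 and Emr1 rose more than any of the 10 genes did. Cd68 was 64.00, 50.8 and 62.9 CPM in control8 and 351, 487 and 434 CPM in gain8 (2.84 ± 0.49, adjusted p = 0.000479), and it changed by 3.30 ± 0.50 in loss, 1.82 ± 0.47 in gain4, 3.10 ± 0.49 in regain and 0.75 ± 0.46 in maintenance (adjusted p = 0.000125, 0.0304, 0.000153 and 0.368). Emr1 rose in step, by 2.35 in gain8, 2.70 in loss and 2.97 in regain. Csf1r rose less, by 0.85, 0.88 and 0.99 in the same groups. Of 15 general macrophage genes 13, 11 and 13 rose in gain8, loss and regain and 0 fell, and of 14 genes of lipid-laden macrophages 13, 12 and 12 rose.

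Set against Cd68, the 10 genes were lower in gain8, loss and regain, and all but Retnla in gain4. Cd163 stood at 185, 171 and 183 CPM per 100 CPM of Cd68 in control8, 27.2, 5.62 and 14.3 in gain8, 1.43, 7.12 and 7.12 in loss and 5.29, 7.53 and 6.78 in regain. Mrc1, which rose in amount, still dropped from 187 to 268 per 100 CPM of Cd68 in control16 to 48.3 to 80.4 in regain. By limma on log2 ratios, 10 of 10 genes were lower per Cd68 in gain8, 10 in loss, 10 in regain and 9 in gain4, beside 95.2%, 97.1%, 95.0% and 78.2% of all genes. Because Cd68 itself rose so much, almost every transcript of the tissue fell relative to it, and these counts say nothing particular about the 10. Their median ratio changes were larger than those of all genes in gain8 (-4.09 against -2.85), loss (-4.28 against -3.23) and regain (-4.12 against -3.12). Mrc1, Folr2 and Clec10a fell less than the median of all genes each time, and the others fell more. In that order, Mrc1, Folr2 and Clec10a changed by -2.26, -2.71 and -2.11 in gain8 and -2.33, -2.28 and -2.90 in loss. In regain they changed by -1.94, -2.00 and -2.41. In gain4 the count was 5 without gain4 library 3. The largest changes were -6.29 ± 0.86 for Retnla and -5.76 ± 0.63 for Cd163 in loss, and the smallest in that group -2.28 ± 0.45 for Folr2 and -2.33 ± 0.47 for Mrc1.

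**Figure D3:**
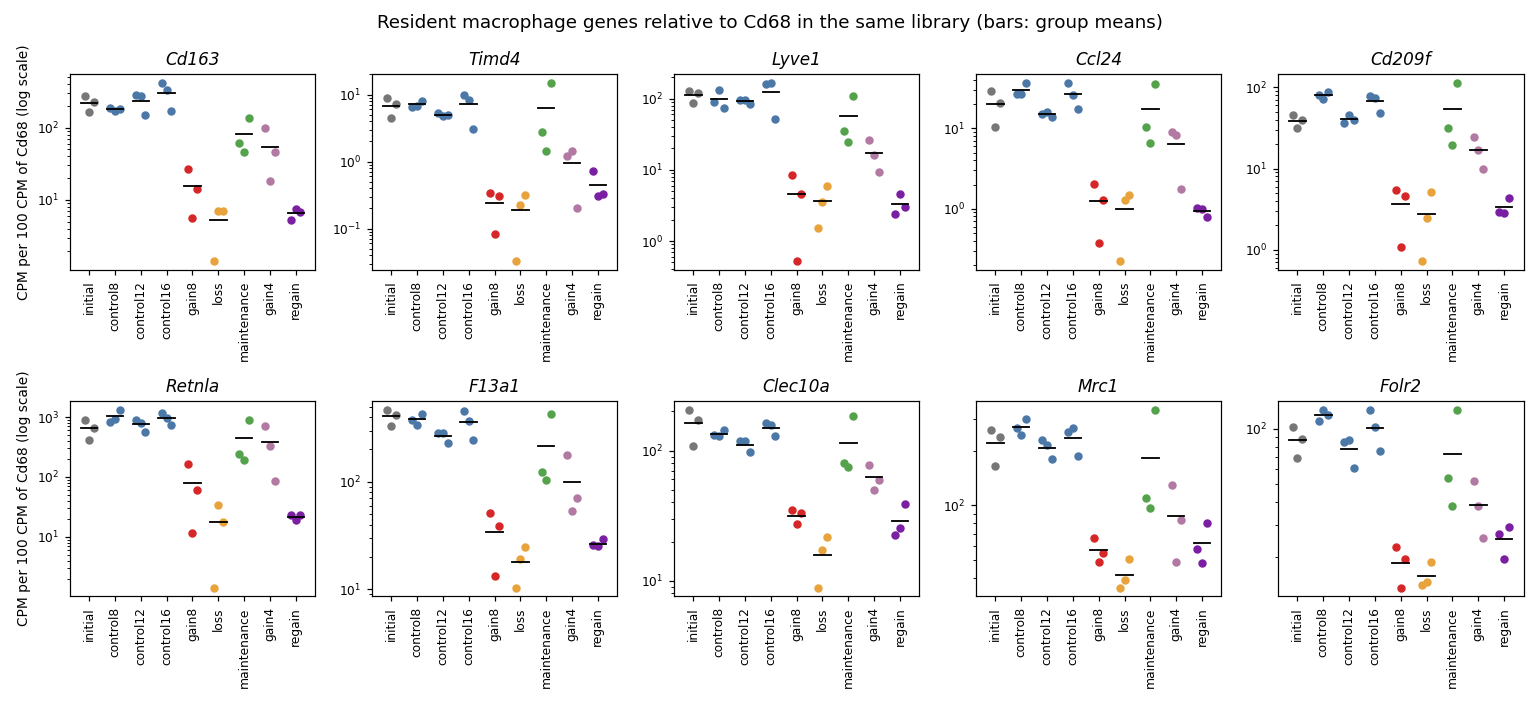
Each gene's CPM per 100 CPM of Cd68 in the same library (log scale), with bars at group means. The gain8, loss and regain libraries lie below the initial and control libraries for all 10 genes, and maintenance library 3 lies above the other 2 maintenance libraries in each panel.

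The result relative to Cd68 in maintenance turned on a single library. With all 3 libraries 0 of 10 genes were called lower per Cd68, beside 0.00% of all genes, by limma, and 1 reached an unadjusted p under 0.05. Maintenance library 3 had 29.5 CPM of Cd68 where the other 2 had 184 and 139, and its Cd163 stood at 135 per 100 CPM of Cd68 where theirs stood at 61.8 and 46.6. Without it 9 of 10 genes were lower per Cd68, all but Timd4, beside 53.3% of all genes, with changes from -2.42 for Cd163 to -0.94 for Clec10a among the 9. Against gain4, 7 of 10 were lower per Cd68 in regain, beside 38.1% of all genes, and Mrc1, Folr2 and Timd4 were not. Set against the loss effect, the maintenance effect per Cd68 was higher for 10 of 10, beside 88.4% of all genes. It was higher for 7 without the 3 libraries that stood apart, where Mrc1, Folr2 and Ccl24 were not called (adjusted p = 0.0722, 0.0505 and 0.0691). The share of all genes without those libraries is not given here. The count of regain against gain4 fell to 0 without gain4 library 1, gain4 library 2 or regain library 3. Against maintenance, 10 of 10 were lower in regain, beside 92.4%. Between loss and gain8, and between control8 and initial, 0 of 10 differed per Cd68, beside 0.0786% and 0.0168% of all genes, and 3 and 0 reached an unadjusted p under 0.05.

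Csf1r as denominator divided the genes where Cd68 did not. With Emr1 or the 6-gene macrophage panel instead, no gene lost its Cd68 call in gain8, loss or regain against controls. Emr1 itself rose there, by 2.35, 2.70 and 2.97, and the panel includes both Cd68 and Emr1. The shares of all genes called with these denominators are not given here, so those calls say nothing particular about the 10. Per Csf1r, 7 of the 10 genes (Cd163, Timd4, Lyve1, Ccl24, Cd209f, Retnla and F13a1) were lower in each of gain8, loss and regain, beside 37.0%, 35.5% and 49.1% of all genes. Folr2 was also lower in gain8 (-0.72 ± 0.24, adjusted p = 0.0226). Mrc1 stayed close to Csf1r, with changes of -0.28 ± 0.24 in gain8, 0.02 ± 0.24 in loss and 0.18 ± 0.24 in regain. For Clec10a the changes were -0.12, -0.54 and -0.28, and for Folr2 in loss and regain 0.08 and 0.12, none of them called. F13a1, which was not called in amount, was lower per Csf1r by -1.69 ± 0.33 in gain8 (adjusted p = 0.00107). In gain4 and in maintenance 0 of 10 were called per Csf1r, beside 0.920% and 0.00% of all genes.

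Ratios to Mrc1, a denominator chosen after the values were seen because it did not fall, restate this division and are no test of it. Relative to Mrc1, the same 7 genes were lower in loss and regain, of 9 compared, beside 29.0% and 58.0% of all genes. In gain8 6 were, beside 10.6%, with Retnla the exception (-2.12 ± 0.77). The ratio of Cd163 to Mrc1 changed by -3.42 ± 0.45 in loss and -3.52 ± 0.45 in regain. The ratio of Folr2 to Mrc1 changed by -0.44 ± 0.29 in gain8, 0.05 ± 0.29 in loss and -0.06 ± 0.29 in regain, and that of Clec10a by 0.16 ± 0.28, -0.56 ± 0.28 and -0.46 ± 0.28, none of them called.

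Across the 27 libraries, which share their diet groups and composition, log2 CPM of the genes formed the same blocks. Cd163, Timd4, Lyve1, Ccl24, Cd209f, Retnla and F13a1 all correlated positively with each other, from 0.58 for Cd163 with Timd4 to 0.90 for Ccl24 with Cd209f. Mrc1, Folr2 and Clec10a correlated with each other at 0.72 to 0.89. Mrc1 and Folr2 correlated negatively with each of the first 7, and Clec10a with 6 of them, F13a1 being the exception at 0.13. With group means removed, the correlations of Mrc1 with the first 7 ran from -0.31 for Timd4 to 0.66 for F13a1. With Cd68, the correlations were 0.83 for Mrc1, 0.79 for Folr2 and 0.67 for Clec10a, and from -0.48 for F13a1 to -0.73 for Timd4 for the other 7.

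**Figure D4:**
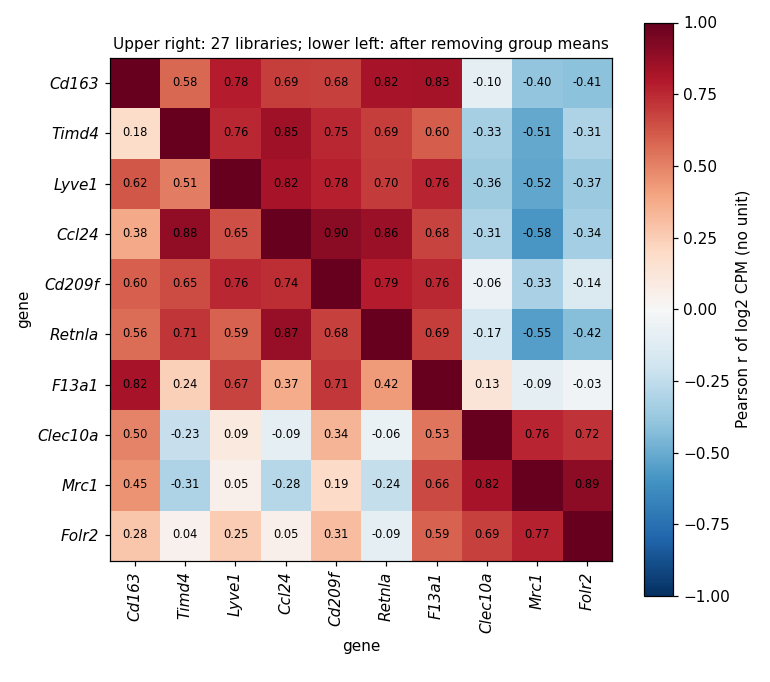
Pearson correlation of log2 CPM between the 10 genes over 27 libraries (upper right) and after removing group means (lower left). The upper right shows 7 genes correlated from 0.58 to 0.90 and a second block of Clec10a, Mrc1 and Folr2 at 0.72 to 0.89.

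The genes most like each of them in log2 CPM over the 27 libraries were found among all tested genes. For Cd209f these were Cd209g (r = 0.97), Cd209d (0.91) and Ildr2 (0.85), and for Ccl24 they were Ildr2 (0.91), Cd209g (0.91) and Cd209d (0.90). Cd163 was most like Abca6 (0.90), Ica1l (0.90) and Fkbp5 (0.90), Retnla like Syn3 (0.88), Cd209d (0.87) and Ica1l (0.85), and F13a1 like Sema3e (0.85), Abca6 (0.80) and Scara5 (0.80). Lyve1 was most like Ackr2 (0.89), Ltbp1 (0.88) and Nhsl1 (0.88), and Timd4 like Wfdc1 (0.87), Ildr2 (0.84) and Tmtc2 (0.83). Ildr2 and the Cd209 genes thus recur among the neighbours of the falling genes. Mrc1 was most like Gnpda1 (0.94), Dapp1 (0.93) and Ptplad2 (0.93), Folr2 like Batf (0.92), Dscr3 (0.89) and Fcgr3 (0.89), and Clec10a like Sp140 (0.84), Hmgb2 (0.83) and Pld4 (0.82).

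Most other genes ascribed to resident macrophages were not called. Of 23 tested, none of them among the 10, 3 rose and 2 fell in gain8, 3 rose and 3 fell in loss, 4 rose and 5 fell in regain, and 0 were called in gain4 or maintenance. Of all genes, 12.0% were called higher and 9.52% lower in gain8, 11.8% and 8.24% in loss, and 12.5% and 9.23% in regain. Pltp, a phospholipid transfer protein, rose in gain8 (1.65 ± 0.29, adjusted p = 0.000542), loss (1.60 ± 0.29, adjusted p = 0.000581) and regain (1.60 ± 0.29, adjusted p = 0.000465). The Cd209 genes named above were among those that fell.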

How the data were processed

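RNA-seq of epididymal white adipose tissue was deposited as raw read counts per gene for 27 libraries, with a table of FPKM that the authors derived. TopHat2 2.0.13, HTSeq 0.6.0, Trimmomatic 0.33 and mm10 (GRCm38) are named in the submitters' processing notes; strand setting and annotation are not given in the sources used here. Reads of overlapping antisense genes may therefore be mixed. All 156 rows repeating a name were identical, and each name was used once. Libraries held 26479773 to 32728594 counts.

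Genes were kept by filterByExpr (minimum count 10, total 15), leaving 17821. edgeR 4.0.16 (R 4.3.3) fitted 9 group means to the deposited counts by its quasi-likelihood test after TMM scaling, and p-values were Benjamini-Hochberg adjusted over all genes within each of 9 two-group comparisons and 2 differences of differences. Calls were made where the adjusted p was under 0.05. Levels are TMM-scaled CPM. Changes relative to Cd68 were fitted with limma 3.58.1 on differences of log2 CPM (prior count 2), and "rose", "fell" and "called" refer to these tests. The 10 genes, the comparison lists and the rule for named genes were chosen with earlier results of these data known. That rule took the 10, the macrophage denominators and up to 3 genes of each list by adjusted p. It also took, for each of the 10, the 3 most similar genes outside the 10 by Pearson correlation. Of the genes the rule selects, 1 is not reported here. Other genes named as cell type checks were chosen after their values were seen.

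Alternatives were no filter, RLE scaling, DESeq2 1.42.0, a fit of the compared groups only, a replicate block, 3 libraries out and each library out. Others were a term for the 15 libraries above 1000 CPM of Lars2, whose locus resembles ribosomal RNA. For the ratios, other denominators and a prior count of 0.5 were also used. Like-numbered libraries did not pair. Simulated data were made for gain8 against control8 with 17821 genes. There edgeR recovered 14%, 52%, 88% and 88% of genes changed 1.5, 2, 4 and 8 times, and the ratio test 0%, 0%, 2% and 76%. Cd68 was held constant in the simulation, whereas it rose in the gain8 libraries. The figures for the ratio test therefore describe a setting unlike the data.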

Additional observations from a re-analysis of the deposited data

Results flagged for a closer look

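The effect of maintenance differed from the effect of loss, each against its own controls, for general macrophage genes: Cd68 by -2.55 on the log2 scale, Emr1 by -2.65, Itgam by -3.47 and Mpeg1 by -2.57 (edgeR, test of the difference of differences). Loss library 1, at 1065 CPM of Cd68, and maintenance library 3, at 29.5 CPM, were part of this test. Its values for these genes without either library are not given here. Relative to Cd68 the same difference was called for all 10 resident macrophage genes: Retnla by 4.84, Timd4 by 4.43, Cd163 by 3.78, Cd209f by 3.60, Lyve1 by 3.55, Ccl24 by 3.37, F13a1 by 2.99, Clec10a by 2.38, Mrc1 by 1.73 and Folr2 by 1.64 (limma). With the 3 libraries that stood apart left out, 7 were called, and Mrc1 (1.15), Folr2 (1.23) and Ccl24 (1.85) were not (adjusted p = 0.0722, 0.0505 and 0.0691). Over all genes 88.4% were called higher in that ratio test with all libraries, and the share without those 3 is not given here. In amount, 0 of the 10 genes were called in the same comparison by edgeR.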

How the results depend on the processing

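Counts of called genes are of 10 (of 9 with Mrc1 as denominator), and no gene reversed in amount in any alternative. Over these genes, their comparisons and the alternatives, 57 values in amount lost a call and 35 gained one. The other 1458 kept their status, which for most of them was not called in the main fit either. Of the amounts in loss (5 called), 3 were called with only the groups compared, 1 with the 3 libraries out, and 1 to 6 with each library left out. In maintenance (0 called), DESeq2 called 1 and leaving out each library gave 0 to 1. For regain against gain4 (2 called), the count was 0 without a filter, 0 with only the groups compared, 1 with the Lars2 term, 4 with the 3 libraries out, and 0 to 3 with each library out. None of those 3 libraries belongs to regain or gain4. For regain against maintenance (3 called) it was 1 with only the groups compared, 5 with the 3 libraries out, 5 with DESeq2, and 2 to 4 with each library out. For control8 against initial (0 called) it was 1 with only the groups compared, and for the maintenance effect minus the loss effect (0 called) 0 to 1 with each library out. Counts for gain8 (4 called) and regain (7 called) were 3 to 4 and 5 to 6 with each library out. With replicate number as a block the count of regain against gain4 was 0; the pairing was not used, since correlations between like-numbered libraries ran from -0.181 to 0.378 and did not exceed 0.1 in all 3 pairs of any comparison. Relative to Cd68, the gain8 count (10) was 6 with Mrc1 as denominator. The maintenance count (0) was 10 with the 3 libraries out and 0 to 9 with each library out. The 9 came without maintenance library 3, beside 53.3% of all genes called lower. The share of all genes with the 3 libraries out is not given here. The gain4 count (9) was 0 per Csf1r, 0 per Mrc1, 4 per the 6-gene macrophage panel, and 5 to 10 with each library out. The count of regain against gain4 (7) was 0 to 6 with each library out, and that of the maintenance effect minus the loss effect (10) was 0 with Mrc1 as denominator. The sign turned, without a call, for Mrc1 per Csf1r in loss (0.022), gain4 (0.076) and regain (0.18), Folr2 per Csf1r in loss (0.075), gain4 (0.18) and regain (0.12), and Clec10a per Csf1r in gain4 (0.33). Per Mrc1 it turned for Folr2 in loss (0.053), gain4 (0.10) and the maintenance effect minus the loss effect (-0.086), and for Clec10a in gain8 (0.16) and gain4 (0.25). The cause of these differences was not tested. Leaving out a library leaves 2 in its group, which are assumed to vary like the other groups. Depth limits Timd4 most, with as few as 10 counts in a library.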
